A study of Homo sapiens with 29 samples.

Results

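DHL4 is an established human cell line of diffuse large B-cell lymphoma, an aggressive tumour of B cells, and R406 is a small molecule that inhibits the tyrosine kinase SYK. The comparison described here sets 3 arrays of DHL4 cells given 1 µM R406 for 2 h against 2 arrays of DHL4 cells given the solvent DMSO, chosen by their sample titles, 5 of the 29 arrays of the series. The other arrays hold R406 at 6, 24 and 48 h in DHL4 and the same groups in a further diffuse large B-cell lymphoma line, DHL6. Both groups grew in RPMI medium with fetal calf serum and glutamine, and the labels name no stimulus of the B-cell receptor. The DMSO arrays carry no time in their labels, although the design text names time points for both R406 and solvent, and time in culture and R406 cannot be told apart. No label says whether replicate arrays were separate cultures. The p-values therefore measure the spread between arrays, estimated within the groups of all 29 arrays and not from the 5 alone. R406 is known to act on kinases other than SYK, and an inactive compound or a SYK knockdown was not analysed here. RNA extracted with Trizol was hybridised to a plate-format Affymetrix human array, and 12165 genes, each read by 1 probe set, were analysed.

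The B-cell receptor is a surface immunoglobulin paired with the signalling chains CD79A and CD79B. When it is engaged, or when it signals tonically, Src-family kinases such as LYN phosphorylate CD79A and CD79B, SYK docks there, and SYK passes the signal through BLNK, BTK and PLCG2 to calcium, protein kinase C, RAS-ERK and PI3K-AKT. AKT holds FOXO transcription factors out of the nucleus, and ERK, NFAT and NF-kB drive short-lived messenger RNAs, so transcripts of these branches can move within hours of a block.

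Levels are log2 expression values, on which a step of 1 is 2-fold. Differences are R406 minus DMSO, given as log2 fold change ± standard error (SE), with adjusted p from limma with Benjamini-Hochberg adjustment over all 12165 genes. Genes with an adjusted p below 0.05 are referred to as called. The method that summarised the probes, RMA, compresses dim signals, and 6420 of the 12165 genes had a DMSO mean below 3.5, so changes that begin or end below 3.5 are understated. Such levels are called dim. B-cell markers were present, with 2 of 11 measured markers below 3.5 in both groups and a summed level between 86.9 and 87.9 in the 5 arrays. Of the markers of T and NK cells, 13 of 14 lay below 3.5 in both groups, as did 10 of 10 of monocytes and macrophages. For fibroblasts, endothelium and epithelium it was 13 of 14, and the exception was DCN, at 8.33 to 8.51 in all 5 arrays. The other DCN probe sets disagreed, with DMSO means of 7.59, 6.68 and 3.80, and the set at 6.68 was called lower, by -0.885.

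The third R406 array stood apart. Its correlation with the other 4 arrays over genes was 0.969 to 0.985, against 0.981 to 0.994 among those 4, and its 75th percentile was 5.41 against 5.75 and 5.79 in the other R406 arrays and 5.93 and 5.82 in DMSO. Among all 29 arrays its 75th percentile was the second lowest. Genes of middle level were shifted down on it. Over the 1082 genes with a DMSO mean from 5 to 6, its median difference from the DMSO mean was -0.43, against -0.13 and -0.05 for the first and second R406 arrays. Over the 286 genes at 10 or above it was -0.04, and over the 6420 genes below 3.5 it was 0.10. What part of any fall this shift accounts for was not tested, and results that change without this array are given with that value.

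**Figure D1:**
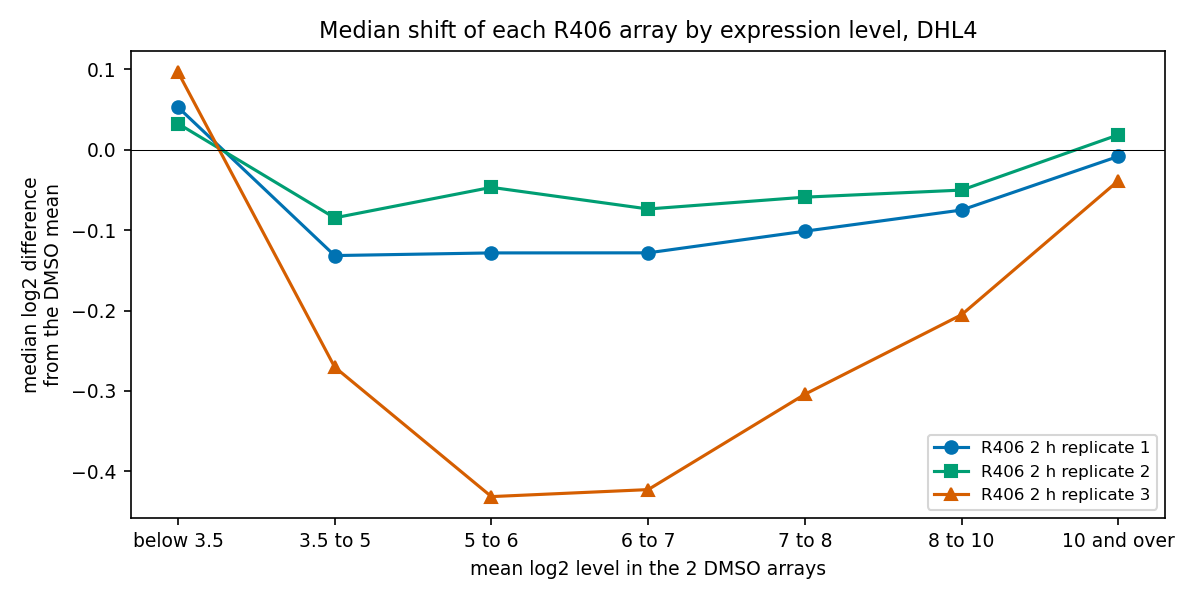
Median difference of each DHL4 R406 2 h array from the mean of the 2 DMSO arrays (vertical axis, log2), for genes grouped by their DMSO mean (horizontal axis, log2 level). Replicate 3 lies below the other R406 arrays at every level from 3.5 upwards and reaches -0.43 between 5 and 6.

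After 2 h of R406, 1153 of 12165 genes were called changed, 9.48% of all genes, of which 325 were higher (2.67%) and 828 lower (6.81%). At least 2-fold changes were called for 67 higher genes (0.551%) and 309 lower genes (2.54%). Thus 71.8% of the called genes fell, while quantile normalization of the arrays left 652 falls against 551 rises, 54.2% of the called genes. Without the third R406 array 547 genes were called lower. Without DMSO replicate 1 the calls were 165 higher and 403 lower, and without DMSO replicate 2 they were 146 higher and 551 lower. A fit on the compared groups alone called 126 higher and 384 lower. The median over all genes was 0.0059, but it depended on level: of the 800 genes with a DMSO mean from 7 to 8, 160 fell and 54 rose, with a median of -0.15. No overlap between the groups was seen for 2036 genes above DMSO (16.7%) and 2416 below (19.9%), and for 1148 of the 1153 called genes.

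The genes named first are the 20 largest rises and the 20 largest falls among called genes whose R406 arrays all lay outside the DMSO arrays. The largest rise was that of CXCR4, the receptor that guides B cells towards the chemokine CXCL12. CXCR4 stood at 6.69 and 6.32 in the DMSO arrays and at 9.96, 9.96 and 9.93 in the R406 arrays. The R406 arrays lay close together and far above both DMSO arrays, a rise of 3.45 ± 0.13, or 10.9-fold (adjusted p = 5.43e-15). The other CXCR4 probe sets rose by 3.89 and 4.10. RUBCNL, which takes part in autophagosome maturation, rose from 7.09 and 7.17 to 10.25, 10.24 and 10.02, by 3.04 ± 0.13 (adjusted p = 1.62e-14). KANK2, an adaptor between adhesions and the cytoskeleton, rose from 6.48 and 6.50 to 9.03, 9.15 and 8.94, by 2.55 ± 0.16, although its other probe set moved by 0.08. GADD45A, a growth arrest and stress gene, rose from 6.27 and 6.19 to 8.95, 8.80 and 8.44, by 2.50 ± 0.26, with the third R406 array the lowest of the 3.

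BACH2, the repressor that keeps B cells from turning into plasma cells, had DMSO values of 7.34 and 7.17 and R406 values of 9.38, 9.47 and 9.53. It rose by 2.21 ± 0.16, or 4.62-fold (adjusted p = 7.12e-10), and its other probe set rose by 1.99. RGS1, which shortens signalling by G proteins and so by chemokine receptors, was dim in DMSO at 3.22 and 2.91 and reached 5.55, 5.59 and 5.32, a rise of 2.42 ± 0.23 that is understated. EIF2AK3, the endoplasmic reticulum stress kinase PERK, rose by 2.16 ± 0.22 although its DMSO arrays lay nearly 1 unit apart at 5.78 and 4.83. MYBL1, a germinal centre transcription factor, rose from 6.89 and 7.04 to 8.95, 8.88 and 8.60. IL16, a precursor of a T-cell attractant, rose by 2.14, the uridylyltransferase TUT7 by 1.87, and the Hippo-pathway adaptor SAV1 by 2.01. CDC25C, the phosphatase that activates CDK1 at mitotic entry, rose by 1.81, and OAS1, an interferon-induced sensor of double-stranded RNA, by 1.76, with R406 values spread from 5.26 to 6.34. Other members of the 20 largest rises were APOLD1, PCDH9, MBNL2, SEC14L1, ENTPD4 and TMPRSS15, between 1.67 and 2.41. The other probe sets of CDC25C, IL16, KANK2, MBNL2, OAS1, PCDH9 and TMPRSS15 were not called, so these rises rest on the probe set of highest mean. RGS1 and SEC14L1 each had 1 other probe set that also rose, by 0.96 and 1.43, and further ones that were not called.

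The largest fall was that of USP2, a ubiquitin-specific protease. USP2 stood at 6.65 and 6.79 in DMSO and at 3.25, 2.89 and 2.79 in R406, the latter all dim, a difference of -3.74 ± 0.21 (adjusted p = 7.32e-12). Its other probe set was dim and moved by 0.09. LMO2, a bridging protein of transcription complexes that marks germinal centre B cells, went from 6.35 and 6.01 to 2.90, 3.37 and 3.01, by -3.09 ± 0.19 (adjusted p = 4.9e-11), and also ended dim. DDIT4, an inhibitor of mTORC1, had nearly equal DMSO values of 7.65 and 7.63 and R406 values of 4.87, 4.87 and 4.68. It fell 7.15-fold, a change of -2.84 ± 0.18 (adjusted p = 4.9e-11). SLC2A6, of the hexose transporter family, went from 6.90 and 6.74 to 3.87, 4.13 and 3.53, by -2.97 ± 0.16.

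TFEB, the transcription factor of lysosomal genes, went from 7.15 and 6.89 to 4.44, 4.28 and 4.75, by -2.53 ± 0.19 (adjusted p = 1.04e-09). LYL1, a basic helix-loop-helix factor and partner of LMO2, went from 8.91 and 8.78 to 6.34, 6.70 and 6.92, by -2.19 ± 0.19. ZMIZ1, a transcriptional coregulator, had DMSO values of 9.01 and 9.08 and R406 values of 6.83, 6.65 and 5.76, so the third R406 array lay almost 1 unit under the other R406 arrays. CHORDC1, a co-chaperone of HSP90, went from 7.34 and 6.75 to 4.89, 5.10 and 4.49, by -2.22 ± 0.32. The adaptors BCAR3 and TRAF4 changed by -2.81 and -2.47, the endoplasmic reticulum membrane protein CKAP4 by -2.40, the surface protein THY1 by -2.32, and the actin regulator PHACTR1 by -2.14. PTGS1 (cyclooxygenase 1), RAB33A, JMJD6, RGS16 and ATP10D completed the 20 largest falls together with PTPN6 and CD72, which are described with the receptor. The other probe sets of JMJD6 and RAB33A were not called. PTGS1 and THY1 each had 1 other probe set that also fell, with changes of -2.43 and -1.76, and 1 that was not called. All 40 of the largest rises and falls kept their calls without any 1 array and in each alternative fit that tested them, and TMPRSS15 was not tested under the stricter filter on low values.

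**Figure D2:**
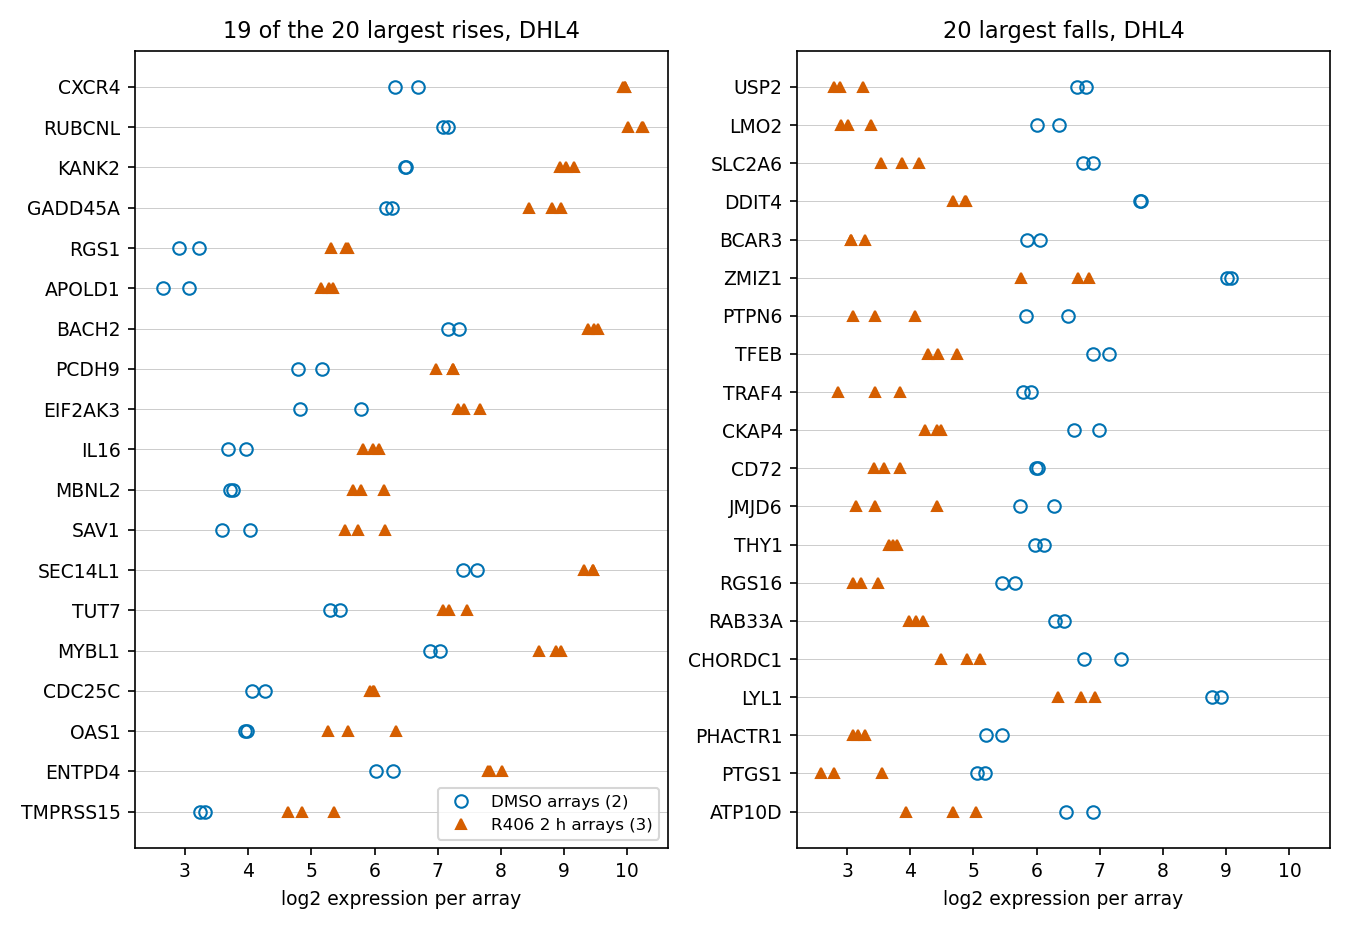
Log2 expression (horizontal axis) of 19 of the 20 largest rises (left) and the 20 largest falls (right) in DHL4, with 1 open circle for each of the 2 DMSO arrays and 1 triangle for each of the 3 R406 2 h arrays. Genes were chosen so that circles and triangles do not overlap. CXCR4 runs from 6.32 to 9.96 and USP2 from 6.79 to 2.79.

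The receptor and its proximal kinases came first among the lists. Each list's counts stand beside 2.67% rises and 6.81% falls over all 12165 genes, and its median beside 0.0059. Those shares are lower than among brighter genes, since the 6420 genes dim in DMSO held only 7 of the falls. Among the 4090 genes with a mean of at least 5 in either group, tested alone, 881 fell and 326 rose. Their median was -0.13, and lists of bright genes are to be read beside these values too. Of 15 measured members of the receptor list 1 rose and 5 fell, with a median of -0.29. SYK, the target of R406, was at 7.43 and 7.39 in DMSO and 7.26, 7.29 and 6.71 in R406, a difference of -0.32 ± 0.19 that was not called (adjusted p = 0.362), and the third R406 array was the lowest. BTK, the next kinase, differed by -0.29 ± 0.15 (adjusted p = 0.27), and the signalling chains CD79A and CD79B by -0.11 and 0.21, also not called. LAT2, a membrane adaptor, fell from 7.79 and 7.86 to 5.49, 6.11 and 5.95, a change of -1.97 (adjusted p = 3.48e-07). The other LAT2 probe set was dim and was not called, at -0.36. VAV1, a guanine nucleotide exchange factor, fell from 7.08 and 7.20 to 5.68, 5.60 and 5.71 (adjusted p = 8.31e-06). The linker BLNK changed by -0.64 and LYN by 0.39, calls that were lost without DMSO replicate 1 (adjusted p = 0.0602 and 0.277).

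The list of inhibitory proteins of the receptor held larger single changes. Of 16 co-receptors and brakes 2 rose and 6 fell, beside 2.67% and 6.81% of all genes, with a median of -0.24. PTPN6, the phosphatase SHP-1 that removes phosphates from receptor substrates, stood at 5.84 and 6.50 in DMSO and at 4.07, 3.44 and 3.10 in R406, a difference of -2.63 ± 0.25 (adjusted p = 4.31e-08). CD72, an inhibitory co-receptor that recruits SHP-1, went from 5.98 and 6.03 to 3.58, 3.84 and 3.43, by -2.39 ± 0.18 (adjusted p = 1.3e-09). FCGR2B, the inhibitory Fc receptor, went from 4.80 and 4.52 to 2.92, 2.94 and 2.96 and ended dim, and CSK, which holds Src-family kinases inactive, from 7.63 and 7.52 to 6.65, 6.67 and 6.63. For these 4 genes every R406 array lay below both DMSO arrays, which held for 2416 of all genes (19.9%). For PTPN6 and CD72 that separation was part of how they were chosen. CBLB, a ubiquitin ligase that dampens receptor signals, rose from 4.29 and 3.34 to 5.14, 5.49 and 5.26, by 1.48 ± 0.19 (adjusted p = 4.08e-06). Its other probe set was dim and moved by 0.20, which was not called.

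Among 16 PI3K-AKT components and brakes 3 rose and 5 fell, beside the same shares of all genes (2.67% and 6.81%). Beside DDIT4, the AKT-binding pseudokinase TRIB3 fell from 6.69 and 6.46 to 5.18, 5.10 and 4.88, a change of -1.52 (adjusted p = 2.79e-05). TCL1A, an AKT co-activator, rose from 8.73 and 8.82 to 9.64, 9.47 and 9.85 (adjusted p = 0.000144). PIK3CD, the catalytic subunit that dominates in B cells, rose by 0.65, which was lost without DMSO replicate 2 (adjusted p = 0.0526). The other PIK3CD probe set was dim and moved by 0.08. In the calcium, protein kinase C and NFAT list 0 of 13 rose and 4 fell, beside 6.81% falls over all genes. RASGRP1, which couples diacylglycerol to RAS, fell from 8.71 and 8.64 to 6.80, 6.70 and 6.38, a change of -2.05 (adjusted p = 7.5e-11). PRKCD, a protein kinase C isoform, fell from 6.75 and 6.95 to 5.46, 5.41 and 4.89 (adjusted p = 0.00044).

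Many of the short-lived transcripts downstream were dim in the DMSO arrays. Of 19 immediate early transcription genes 1 rose and 5 fell, beside 2.67% and 6.81% of all genes, and 10 had a DMSO mean below 3.5, among them EGR1 and FOS, which differed by 0.28 and -0.03, at a level where falls are compressed. IER2 fell from 9.11 and 9.12 to 7.23, 7.48 and 7.21, a change of -1.81 (adjusted p = 1.96e-10). SRF, the factor that drives many of these genes, fell from 7.51 and 7.49 to 6.10, 5.90 and 6.32 (adjusted p = 9.04e-06), and IER5 from 5.68 and 5.43 to 4.32, 4.53 and 4.08 (adjusted p = 0.000161). The ERK feedback list had 0 rises and 3 falls of 14, with 9 dim in DMSO. Its phosphatases DUSP2 and DUSP7, which switch off MAP kinases, changed by -1.60 and -1.36, while the other DUSP7 probe set was dim and moved by -0.09. Of 16 chemokines and activation markers 0 rose and 3 fell, and of 17 NF-kB subunits and targets 2 rose and 1 fell. NFKBIE, an inhibitor of NF-kB, fell from 4.34 and 5.05 to 3.02, 3.62 and 3.66, whereas NFKBIA, its better known relative, was higher at 7.71, 7.69 and 8.01 against 7.29 and 7.24, a call lost without DMSO replicate 2 (adjusted p = 0.0506).

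MYC, the transcription factor that drives growth and ribosome production, stood at 9.98 and 10.00 in DMSO and at 8.68, 8.75 and 8.60 in R406. The groups were separated by far more than the spread within either, and MYC fell 2.49-fold, a change of -1.31 ± 0.08 (adjusted p = 4.9e-11). In its network 2 of 11 members rose and 2 fell. MXD3, a repressor that shares the partner MAX with MYC, rose from 3.67 and 3.74 to 4.49, 5.03 and 4.55 (adjusted p = 0.00281).

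Ribosome synthesis fell as a group. Of 33 measured genes of ribosome assembly and the nucleolus 23 fell and 0 rose, beside 6.81% falls over all genes, with a median of -0.90 and 32 of 33 values below 0. Without the third R406 array 19 fell, and in the fit on the compared groups alone 15. NOP16, a nucleolar protein, went from 8.42 and 8.38 to 6.47, 6.59 and 6.90, by -1.74 ± 0.24 (adjusted p = 1.19e-05). PUS7, a pseudouridine synthase, went from 7.19 and 7.01 to 5.67, 5.08 and 4.32, by -2.07 ± 0.26, with the third R406 array the lowest. RRS1, needed for the large subunit, went from 9.08 and 8.82 to 7.67, 7.49 and 7.08, and the RNA helicase DDX21 from 10.07 and 10.00 to 8.78, 8.90 and 8.88 (adjusted p = 3.6e-07 and 3.2e-07). UTP20, BOP1 and PPRC1 changed by -1.33, -1.12 and -1.48. The abundant nucleolar proteins NPM1 and FBL were not called, at 0.07 and -0.13.

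Other growth lists moved less. Of 12 translation factors 6 fell and 0 rose, beside 6.81% falls over all genes, with a median of -0.62, but without DMSO replicate 1, and in the fit on the compared groups alone, 3 fell. EIF3B, an initiation factor subunit, fell from 9.60 and 9.61 to 8.96, 8.90 and 8.93 (adjusted p = 0.000141). Of 24 cytosolic ribosomal proteins 0 were called, with a median of 0.03 and a range of -0.08 to 0.11. Their median DMSO level was 12.51, near the top of a scale that ended at 13.5. Of 21 polyamine and nucleotide synthesis genes 5 fell, among them ODC1, the first enzyme of polyamine synthesis, which changed by -0.52 (adjusted p = 0.0319), a call lost without the third R406 array (adjusted p = 0.0858) and without either DMSO array (0.202 and 0.131). Of 26 genes of amino acid supply and ATF4 stress 2 fell and 0 rose, and of 16 tRNA synthetases 1 fell.

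Most measured enzymes of cholesterol synthesis fell. Of the middle steps MVK, PMVK, MVD and FDPS were not called, but IDI1 fell. Of 16 measured enzymes 11 fell and 0 rose, beside 6.81% falls over all genes, with a median of -0.98, the lowest of the 45 lists, and 8 fell at least 2-fold. The count stayed between 9 and 11 when any 1 of the 5 arrays was left out, and was 9 in the fit on the compared groups alone. HMGCS1, the synthase that opens the mevalonate branch, stood at 8.81 and 8.84 in DMSO and at 7.00, 6.77 and 6.86 in R406. It fell 3.87-fold, a change of -1.95 ± 0.16 (adjusted p = 3.61e-09), and its other probe set changed by -3.41. SQLE, the squalene epoxidase, went from 9.38 and 9.28 to 7.72, 7.90 and 7.55, by -1.61 ± 0.12 (adjusted p = 1.14e-09). The next enzyme, LSS, went from 7.73 and 7.64 to 6.45, 6.64 and 6.10, and CYP51A1, which demethylates lanosterol, from 6.96 and 6.60 to 5.69, 5.48 and 5.49. The later enzymes MSMO1, NSDHL and DHCR7 changed by -1.34, -1.04 and -1.25, all called falls. Besides MVK and MVD, the uncalled enzymes were FDPS, PMVK and TM7SF2, at -0.24, -0.44 and 0.14. INSIG1, which retains the SREBP activator in the endoplasmic reticulum and is itself an SREBP target, fell from 9.75 and 9.61 to 8.89, 8.85 and 8.62 (adjusted p = 5.39e-05). It was 1 of 13 genes of SREBP control and sterol transport to be called, and none rose.

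Fatty acid enzymes fell beside them. Of 13 measured, 9 fell and 0 rose, again beside 6.81% of all genes, with a median of -0.62, but without DMSO replicate 1 the falls were 4 and in the fit on the compared groups alone 3. FASN, the fatty acid synthase, stood at 5.70 and 5.85 in DMSO and at 4.06, 3.97 and 4.92 in R406, where the third array was the highest (adjusted p = 0.000105). ACACA, which makes malonyl-CoA, went from 6.43 and 6.29 to 4.55, 5.39 and 5.09 (adjusted p = 0.00076). SCD, the stearoyl-CoA desaturase, went from 9.64 and 9.79 to 8.99, 8.86 and 8.48, by -0.94 ± 0.14 (adjusted p = 4.61e-05). ELOVL6, an elongase, changed by -1.43 but had DMSO values of 5.24 and 3.97, over 1 unit apart.

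Chaperones fell in 2 compartments. Of 17 endoplasmic reticulum chaperones and folding factors 9 fell and 0 rose, beside 6.81% falls over all genes, with a median of -0.52, and 5 fell in the fit on the compared groups alone. HSPA5, the chaperone BiP, stood at 10.59 and 10.52 in DMSO and at 9.48, 9.47 and 9.32 in R406, a change of -1.13 ± 0.10 (adjusted p = 2.12e-08). HSP90B1, the chaperone GRP94, went from 8.85 and 8.89 to 7.57, 7.75 and 7.45, by -1.28 ± 0.13 (adjusted p = 2.55e-07). SDF2L1, a partner of HSPA5, went from 6.77 and 6.81 to 5.41, 5.06 and 4.59, by -1.77 ± 0.21, and the disulfide isomerase PDIA6 from 9.46 and 9.32 to 8.11, 8.45 and 7.95. CALR, the lectin calreticulin, changed by -0.52 (adjusted p = 0.00247). CANX, the membrane-bound lectin of the same cycle as CALR, was not called, at -0.19. Of 23 cytosolic and mitochondrial chaperones 13 fell and 0 rose, beside the same 6.81%, with a median of -0.43, and all 23 values lay below 0. That count fell to 8 without either DMSO array and to 1 in the fit on the compared groups alone. HSPH1, of the HSP110 family, went from 10.32 and 10.23 to 9.24, 9.39 and 9.13, by -1.02 ± 0.14 (adjusted p = 1.1e-05). HSPA8, the constitutive HSP70, went from 11.44 and 11.46 to 10.89, 10.83 and 11.02 (adjusted p = 0.00333), and the chaperonin subunit CCT2 from 10.36 and 10.41 to 9.89, 9.95 and 9.78.

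Promoters of several lists were read for known elements, as description, in the 250 bases before the RefSeq start site (build GRCh38.p14). Whether any element had a part in these changes was not tested. The ER stress response element, searched as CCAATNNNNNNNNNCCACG on both strands, lay in 5 of the 16 endoplasmic reticulum chaperone promoters in the table (31.2%), against 22 of all 27305 promoters (0.0806%). The 5 were HSPA5, HSP90B1, CALR, CANX and XBP1, of which the first 3 fell and the last 2 were not called. The 3 promoters of genes that fell follow, with the element in capitals. That of HSPA5 is chr9:125241344-125241593, minus strand, that of HSP90B1 is chr12:103930160-103930409, plus strand, with 2 matches, and that of CALR is chr19:12938359-12938608, plus strand.
HSPA5: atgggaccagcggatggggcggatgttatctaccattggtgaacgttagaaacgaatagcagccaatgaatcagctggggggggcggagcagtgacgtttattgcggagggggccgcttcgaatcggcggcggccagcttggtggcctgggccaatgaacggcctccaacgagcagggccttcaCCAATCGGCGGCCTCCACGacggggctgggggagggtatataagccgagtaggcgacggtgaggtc
HSP90B1: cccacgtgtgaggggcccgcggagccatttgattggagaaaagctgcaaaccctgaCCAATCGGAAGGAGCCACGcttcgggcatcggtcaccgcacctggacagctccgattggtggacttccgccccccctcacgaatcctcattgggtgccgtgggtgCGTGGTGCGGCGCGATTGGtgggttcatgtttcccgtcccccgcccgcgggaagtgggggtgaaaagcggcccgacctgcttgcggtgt
CALR: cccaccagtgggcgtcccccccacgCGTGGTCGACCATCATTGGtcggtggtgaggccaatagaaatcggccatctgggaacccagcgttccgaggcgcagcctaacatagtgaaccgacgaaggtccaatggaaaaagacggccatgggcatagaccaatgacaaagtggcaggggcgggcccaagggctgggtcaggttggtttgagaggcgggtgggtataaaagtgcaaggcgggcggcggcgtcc

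The CCAAT box (CCAAT, both strands, and part of the element above) stood in 15 of the 16 endoplasmic reticulum chaperone promoters and in 11 of 14 cholesterol synthesis promoters (78.6%), against 33.0% of all promoters. The heat shock element, searched as GAANNTTCNNGAA on both strands, stood in HSPA8, 1 of 21 cytosolic and mitochondrial chaperone promoters, and in CHORDC1, 1 of 15 promoters of the largest falls, against 0.439% of all promoters. HSPA8 and CHORDC1 are shown with the heat shock element in capitals and HMGCS1 with the CCAAT box in capitals, because each fell. HSPA8 (chr11:123062137-123062386, minus strand) has 2 matches, CHORDC1 (chr11:90223050-90223299, minus strand) has 3 that overlap, and HMGCS1 (chr5:43313413-43313662, minus strand) has 2.
HSPA8: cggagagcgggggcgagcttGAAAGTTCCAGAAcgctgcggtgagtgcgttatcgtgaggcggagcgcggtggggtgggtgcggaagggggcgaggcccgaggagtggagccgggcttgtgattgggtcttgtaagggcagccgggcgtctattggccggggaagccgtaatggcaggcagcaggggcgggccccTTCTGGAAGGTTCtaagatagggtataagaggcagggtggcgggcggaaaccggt
CHORDC1: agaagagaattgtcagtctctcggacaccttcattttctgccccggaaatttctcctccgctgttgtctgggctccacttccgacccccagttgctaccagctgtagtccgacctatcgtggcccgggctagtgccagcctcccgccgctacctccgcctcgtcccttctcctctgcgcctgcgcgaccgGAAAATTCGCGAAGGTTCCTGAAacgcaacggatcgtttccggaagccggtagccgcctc
HMGCS1: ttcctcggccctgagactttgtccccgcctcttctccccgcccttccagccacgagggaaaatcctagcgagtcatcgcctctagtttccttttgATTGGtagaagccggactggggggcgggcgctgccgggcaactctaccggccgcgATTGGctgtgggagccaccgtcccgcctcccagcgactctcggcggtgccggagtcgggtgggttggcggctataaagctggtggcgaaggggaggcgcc

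The E-box bound by MYC (CACGTG, both strands) stood in 1 of 27 ribosome synthesis promoters against 6.49% of all, and the FOXO site (GTAAACA, both strands) in 1 of 19 promoters of the FOXO list against 2.98% of all. A core of the sterol regulatory element (CACCCCAC, both strands), searched in addition to the planned motifs, stood in 0 of 14 cholesterol synthesis promoters against 2.37% of all. These matches describe letters in a short window and show neither binding nor its absence.

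The germinal centre and B-cell fate factors split. Of 18 measured, 4 rose, 7 fell and 7 were not called, beside 2.67% rises and 6.81% falls over all genes. The list was chosen with earlier results of these data known, and its median DMSO level was 7.81. Among the 4090 genes with a mean of at least 5 in either group, 881 fell and 326 rose. The shares of the list therefore cannot be read as an excess. BCL6, the repressor that defines germinal centre B cells, went from 9.85 and 9.82 to 8.81, 8.87 and 8.57, by -1.08 ± 0.14 (adjusted p = 4.75e-06), and its other probe set changed by -1.52. LMO2 fell as described. SPIB, an ETS factor of B cells, went from 7.75 and 7.83 to 5.77, 5.95 and 6.60, IKZF1, the factor Ikaros, from 7.99 and 7.89 to 6.77, 6.92 and 6.62, and ID3, an inhibitor of E proteins, from 7.74 and 7.91 to 6.79, 6.62 and 6.74. Another IKZF1 probe set, dim in DMSO, changed by -0.47 and was called, and its remaining ones were not. Against these, BACH2 and MYBL1 rose, and so did MME, the surface protease CD10, from 7.44 and 7.39 to 8.53, 8.51 and 8.38 (adjusted p = 1.69e-06). MS4A1, the surface antigen CD20, fell from 11.40 and 11.34 to 10.48, 10.49 and 10.57 (adjusted p = 1.99e-06), while another B-cell surface protein, CD37, rose from 7.86 and 7.77 to 8.32, 8.43 and 8.41 (adjusted p = 0.000288). Of 10 plasma cell factors 1 rose and 1 fell.

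Of 17 homing receptors and G-protein regulators 3 rose and 4 fell, beside 2.67% and 6.81% of all genes. CXCR4, RGS1 and RGS2 were the rises, that of RGS2 by 0.98, a call lost without either DMSO array (adjusted p = 0.0534 and 0.166) and without the second R406 array (0.0522). RGS19 fell from 8.34 and 8.27 to 6.04, 6.23 and 6.26 and RGS16 from 5.65 and 5.45 to 3.23, 3.49 and 3.10, so members of 1 family of G-protein regulators moved in both directions. The integrin chains ITGB7 and ITGAL fell from 6.72 and 6.62 to 4.51, 5.61 and 4.70 and from 4.88 and 4.98 to 4.05, 3.53 and 3.22. Among 25 cytoskeletal regulators 2 rose and 5 fell. PLEK (pleckstrin) fell from 8.15 and 8.18 to 5.77, 6.32 and 6.54, and LIMA1, an actin-bundling protein, from 8.73 and 8.35 to 6.74, 6.53 and 6.50 (adjusted p = 3.18e-05 and 1.66e-06).

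Of 21 FOXO factors and targets 4 rose and 2 fell, beside 2.67% rises and 6.81% falls over all genes, and 12 had a DMSO mean below 3.5. GADD45A, CCNG2, CDKN1B and SESN1 were the rises. CCNG2, an atypical cyclin linked to arrest, rose from 7.33 and 7.08 to 8.31, 8.33 and 8.20 (adjusted p = 1.55e-05). CDKN1B, the inhibitor p27, was dim in DMSO at 3.37 and 3.18 and reached 5.04, 4.33 and 4.19, and it and SESN1 lost their calls without DMSO replicate 2 (adjusted p = 0.0773 and 0.059). TXNIP, a thioredoxin-binding protein and FOXO target, went the other way, from 7.39 and 7.07 to 5.71, 5.91 and 5.32 (adjusted p = 1.1e-06). FOXO1 itself was not called, at 0.28 (adjusted p = 0.203). KLF2, also a FOXO target, was dim in all 5 arrays.

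Among 9 death-promoting BCL2 family members 1 rose and 1 fell, beside 2.67% and 6.81% of all genes. HRK, a BH3-only protein, stood at 3.66 and 3.54 in DMSO and at 4.19, 4.40 and 3.66 in R406, where the first 2 arrays were higher and the third was level with DMSO, and it was not called (adjusted p = 0.284). BCL2L11, the protein BIM, differed by -0.08 ± 0.20 and was not called. PMAIP1, the protein NOXA, rose from 8.65 and 8.41 to 9.15, 9.14 and 9.07, a call lost without DMSO replicate 2 (adjusted p = 0.125). Of 9 survival members and PIM kinases 1 rose and 0 fell. That was PIM2, from dim values of 2.68 and 3.27 to 3.83, 3.79 and 3.80, a call lost without DMSO replicate 1 (adjusted p = 0.0768). MCL1 differed by -0.22 ± 0.09 (adjusted p = 0.135).

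Of 30 mitosis genes 7 rose and 0 fell, beside 2.67% rises and 6.81% falls over all genes, with a median of 0.34 and 29 of 30 values above 0. The count was 4 without DMSO replicate 1, 1 without DMSO replicate 2, 3 in the fit on the compared groups alone and 12 after quantile normalization. CDC25C went from 4.06 and 4.26 to 5.98, 6.00 and 5.92, and its other probe sets moved by 0.42 and 0.08. CCNF rose by 0.89, a call lost without DMSO replicate 2 (adjusted p = 0.0855). The other CCNF probe set moved by -0.12 and was not called. CDK1, the mitotic kinase, and BIRC5 were not called, at 0.17 and -0.05. Another BIRC5 probe set was called higher, by 0.81, and the remaining one moved by -0.04. Of 28 DNA replication genes 1 rose and 2 fell, and of 18 G1 regulators 2 rose and 3 fell. CDK4, the G1 kinase, fell from 8.94 and 8.89 to 8.19, 8.33 and 8.37 (adjusted p = 0.00104).

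The remaining lists held few calls, again to be set beside 2.67% rises and 6.81% falls over all genes and the larger shares among brighter genes. Of 12 MHC class II genes 2 rose, HLA-DMA from 7.47 and 7.43 to 8.36, 8.19 and 8.40 and HLA-DMB from 8.44 and 8.49 to 9.19, 9.29 and 9.06, the chains of the molecule that loads peptides, while HLA-DRA was not called at 0.14. Of 24 interferon genes 2 rose and 1 fell, and 17 were dim in DMSO. Glycolysis had 4 falls of 19, with PFKP from 7.00 and 7.04 to 6.39, 6.59 and 5.88 (adjusted p = 0.00136), and oxidative phosphorylation 1 rise and 1 fall of 25. Among 14 regulators of messenger RNA turnover 3 rose and 3 fell. The antiproliferative protein BTG1 rose from 9.48 and 9.53 to 10.54, 10.50 and 10.45 and its relative TOB1 fell from 7.04 and 6.80 to 5.33, 5.77 and 5.74 (adjusted p = 0.00182 and 0.000134). CYP1A1, the classic target of the aryl hydrocarbon receptor, was dim in all 5 arrays, at 2.77 and 3.36 and 2.88, 2.84 and 2.78. Of 13 p53 targets 3 rose, of 10 MHC class I genes 1 rose and 2 fell, of 17 autophagy and lysosome genes 2 rose and 2 fell, and of 11 B-cell markers 3 rose and 1 fell. Of 7 targets of the aryl hydrocarbon receptor 1 fell, of 8 targets of NRF2 1 fell, and of 10 histone genes 0 were called. Of the 3 lists of other cell types, with 14, 10 and 14 genes measured, 0 members were called.

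**Figure D3:**
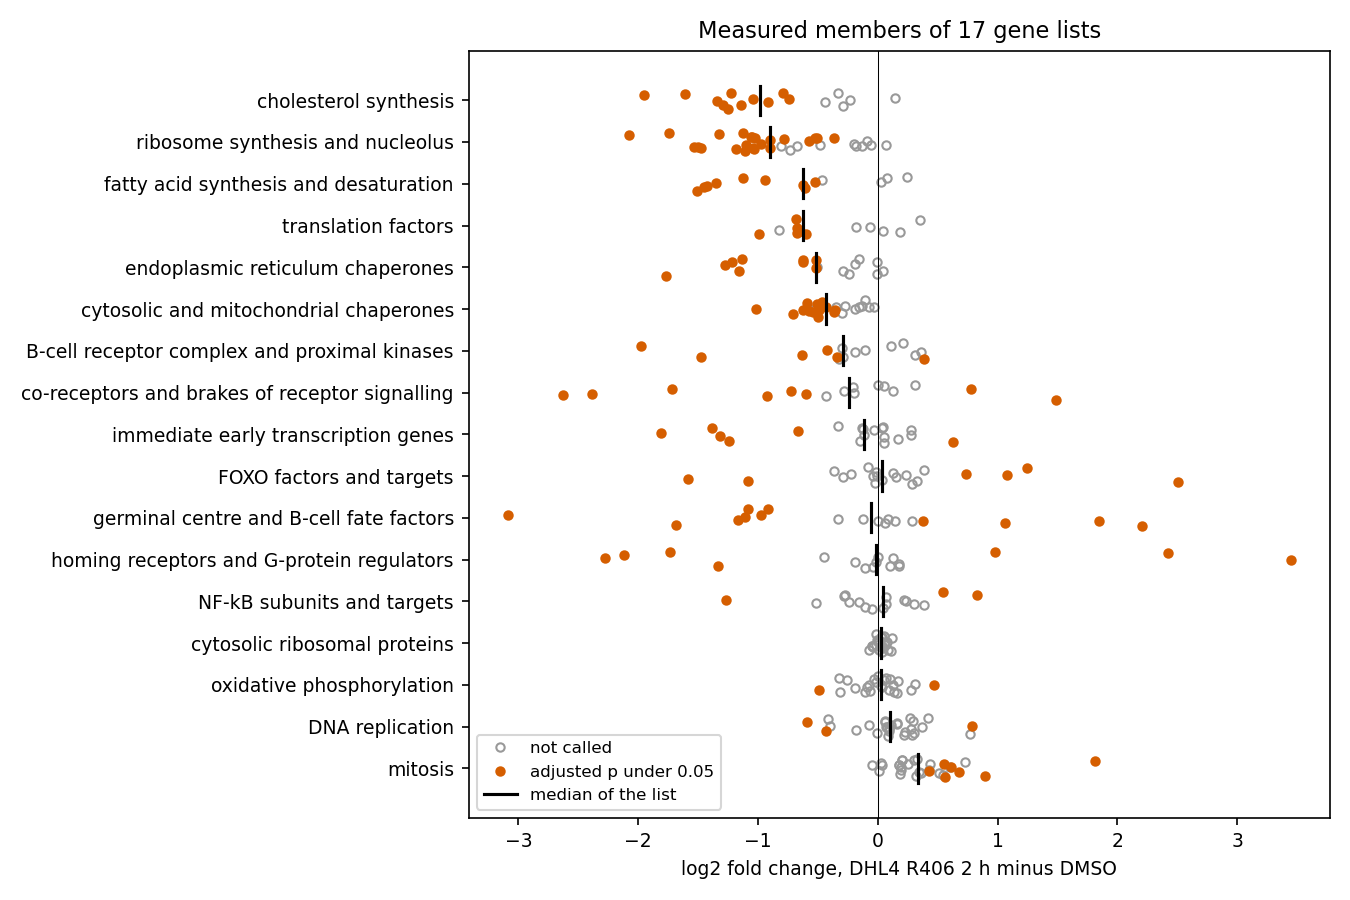
Log2 fold change in DHL4 at 2 h (horizontal axis) of every measured member of 17 gene lists, with filled points for genes called by limma, open points for the others and a bar at the list median. Cholesterol synthesis has the lowest median, -0.98, mitosis the highest shown, 0.34, and ribosomal proteins lie within -0.08 to 0.11.

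To ask which of these changes differed from the response of the other line, the DHL4 change was set against that of DHL6 (3 R406 2 h arrays against 3 DMSO arrays, none shared with DHL4). In DHL6 644 genes were called (5.29%), 260 higher (2.14%) and 384 lower (3.16%). With array weights 1155 were called. The difference between the lines, DHL4 minus DHL6, was called for 214 genes (1.76%), 149 with the DHL4 change below that of DHL6 (1.22%) and 65 with it above (0.534%). Of the 149, 34 were genes dim in DHL6 in both groups, where falls are compressed. Without DMSO replicate 1 or 2 of DHL4 the differences called were 102 and 133, and with array weights 350. Both lines were called for 348 genes, of which 233 fell in both, 104 rose in both and 11 had opposite signs.

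MYC was among those with opposite signs. In DHL6 it rose from 9.35, 9.33 and 9.28 to 10.27, 10.32 and 10.25, by 0.96 ± 0.07, so the difference from its fall in DHL4 was -2.27 ± 0.11 (adjusted p = 1.36e-12). IER5 changed by -1.24 in DHL4 and 1.06 in DHL6, RGS16 by -2.28 and 0.66, and CD83 by -0.54 and 0.71. CCNG2 did the reverse, with 1.08 in DHL4 and -0.63 in DHL6 (adjusted p of the difference = 9.72e-06). For CD83 the call in DHL4 was lost without either DMSO array (adjusted p = 0.0703 and 0.0691).

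Some of the largest negative differences belonged to genes that were dim in the DMSO arrays of DHL6. USP2 differed between the lines by -3.84 ± 0.28 (adjusted p = 5.09e-09), but its DHL6 arrays lay at 2.89, 2.67 and 2.55 in DMSO and 2.86, 2.90 and 2.66 in R406. BCAR3, CKAP4 and THY1, with differences of -2.64, -2.55 and -2.43, were likewise dim in DHL6, at DMSO means of 3.06, 3.30 and 2.80. So were RASGRP1 and FCGR2B, at 3.29 and 2.77. TRAF4, a signalling adaptor, and BCL6 were expressed in both lines. TRAF4 lay at 5.99, 6.13 and 6.04 in DMSO and 6.06, 6.04 and 6.17 in R406 in DHL6, whereas in DHL4 it went from 5.91 and 5.78 to 3.83, 3.45 and 2.86, a difference of -2.51 ± 0.30 (adjusted p = 1.47e-05). BCL6 lay at 9.34, 9.29 and 9.30 and 9.10, 9.07 and 9.30 in DHL6, and its difference from the fall in DHL4 was -0.92 ± 0.18 (adjusted p = 0.00563). ZMIZ1 differed by -2.24, a call lost without the third DHL4 R406 array and either DHL4 DMSO array (adjusted p = 0.0998, 0.124 and 0.133).

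Among the rises, CXCR4 rose by 1.46 ± 0.12 in DHL6, and the difference of 1.99 ± 0.18 was called (adjusted p = 2.02e-07). Its DMSO values in DHL6, 9.32, 9.25 and 9.18, were higher than in DHL4. In R406 it reached 10.70, 10.73 and 10.68 in DHL6, so the levels of the lines were closer in R406 than in DMSO. GADD45A and RGS1 changed by 0.47 and 0.41 in DHL6, with differences of 2.03 and 2.01. TSC22D3, a FOXO- and glucocorticoid-responsive gene, rose by 1.60 in DHL4 against -0.43 in DHL6 (adjusted p of the difference = 4.96e-05). Its other probe set moved by 0.46 in DHL4 and was not called. BACH2 rose further in DHL6, by 3.56 ± 0.15, with a difference of -1.36 (adjusted p = 0.000553), though with the probe sets of each gene averaged it was -0.52 and not called (adjusted p = 0.181). IL16, OAS1 and EMP3 had called differences of 1.94, 1.95 and 2.03 that were lost without DHL4 DMSO replicate 2 (adjusted p = 0.0948, 0.0586 and 0.093), and for OAS1 also without replicate 1 (0.0669).

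Some responses were present in DHL6 and not called in DHL4. HRK rose in DHL6 from 4.53, 4.55 and 4.77 to 7.04, 7.04 and 7.15, and the difference between lines was -1.98 ± 0.34 (adjusted p = 0.00121). The kinase PIM1 rose there by 2.35 against 0.44 in DHL4, with a difference of -1.91 (adjusted p = 0.000107). LRRN3 and the clock-related repressor BHLHE40 changed in DHL6 by -3.35 and -2.16 but were dim in DHL4 in both groups, as was PYHIN1, which rose by 2.27 in DHL6.

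The lists of synthesis enzymes had medians below 0 in both lines, and most of their genes had no called difference between lines. Over all genes 3.16% fell in DHL6 and 1.76% differed between lines. The lists were chosen with earlier results of these data known, so an excess over these shares cannot be read from them. For cholesterol synthesis the median was -0.98 in DHL4 and -0.57 in DHL6, 9 of 16 fell in DHL6, and 2 of 16 differed between lines (SQLE, by -0.87, and MSMO1, by -0.65, the latter lost without either DHL4 DMSO array, with adjusted p = 0.138 and 0.0988, or without the third DHL4 R406 array, with 0.0846). For ribosome synthesis the medians were -0.90 and -0.36, 7 of 33 fell in DHL6, and 4 of 33 differed between lines. For endoplasmic reticulum chaperones they were -0.52 and -0.29, with 6 of 17 falls in DHL6, and for cytosolic and mitochondrial chaperones -0.43 and -0.32, with 10 of 23. LMO2, PTPN6, CD72 and PHACTR1 fell in DHL6 as well, with changes of -2.52, -2.35, -2.08 and -2.29, and their differences were not called (adjusted p = 0.438, 0.868, 0.761 and 0.948).

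**Figure D4:**
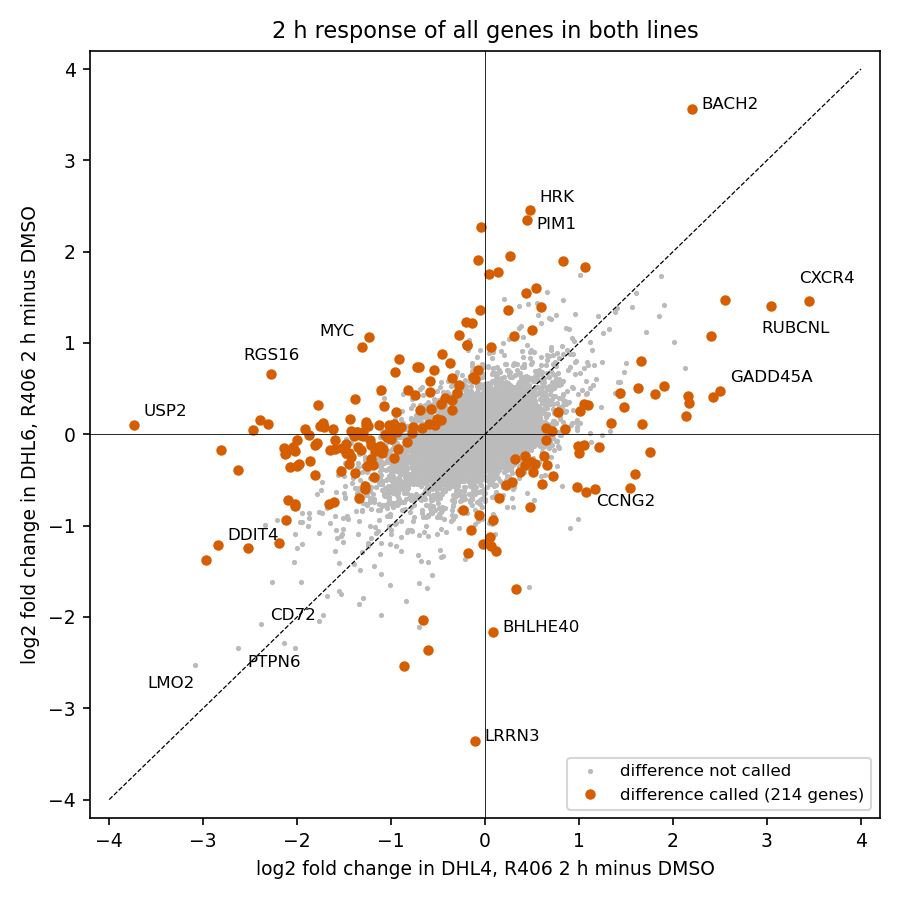
Log2 fold change at 2 h of all 12165 genes in DHL4 (horizontal axis) and DHL6 (vertical axis), with the 214 genes whose difference between lines was called in orange and the line of equal change dashed. USP2 lies at -3.74 in DHL4 and 0.10 in DHL6, MYC at -1.31 and 0.96, and BACH2 at 2.21 and 3.56.

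The 2 h values were then placed beside the later DHL4 times. All later times share the 2 DMSO arrays with the 2 h comparison, so the fold changes below are not independent of those at 2 h, whereas 6 h against 2 h compares R406 arrays alone. From 2 to 6 h 1419 genes were called (11.7%), 1018 higher and 401 lower. Without the third 2 h array the count was 799, and without the first 6 h array 894.

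Some 2 h changes were smaller at 6 h, and the calls between 2 and 6 h named here held without any 1 array. DDIT4 was at -2.84, -1.81, -0.67 and -0.35 at 2, 6, 24 and 48 h, and rose from 2 to 6 h by 1.03 ± 0.16 (adjusted p = 0.000107). TXNIP was at -1.58, then 0.01 at 6 h, a rise of 1.59 ± 0.16 between them (adjusted p = 2.98e-07). CHORDC1 and JMJD6 rose from 2 to 6 h by 1.83 ± 0.29 and 1.68 ± 0.30, HSPH1 by 0.73 ± 0.12 and SPIB by 0.89 ± 0.16 (adjusted p = 0.000105, 0.000415, 0.000228 and 0.000415). APOLD1 came down between 2 and 6 h, by -1.14 ± 0.23 (adjusted p = 0.00169).

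Other changes differed little between 2 and 6 h, or grew. CXCR4 was at 3.45, 3.52, 4.93 and 1.86 at 2, 6, 24 and 48 h, and its 6 h and 2 h arrays differed by 0.08 ± 0.12 (adjusted p = 0.766). MYC was at -1.31, -1.33 and -1.34 up to 24 h and at 0.19 at 48 h. USP2 was at -3.74, -3.64, -3.81 and -1.79. HMGCS1 was at -1.95 at 2 h and -3.09 at 24 h, and NOP16 at -1.74 and -3.49. Between 2 and 6 h HSPA5 went further down, by -1.13 ± 0.09, as did SCD, by -1.01 ± 0.13, DHCR7, by -0.98 ± 0.21, and LIMA1, by -2.35 ± 0.21 (adjusted p = 1.02e-08, 5.84e-06, 0.00222 and 2.98e-08). HRK and PIM1, not called at 2 h, rose from 2 to 6 h by 1.45 ± 0.23 and 1.46 ± 0.18 (adjusted p = 0.000106 and 4.2e-06). The median of the mitosis list was 0.34, 0.80, -0.63 and -0.72 at 2, 6, 24 and 48 h. That of ribosome synthesis was -0.90, -0.95, -1.87 and -0.22, so its fall was smaller at 48 h than at 2 h.

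**Figure D5:**
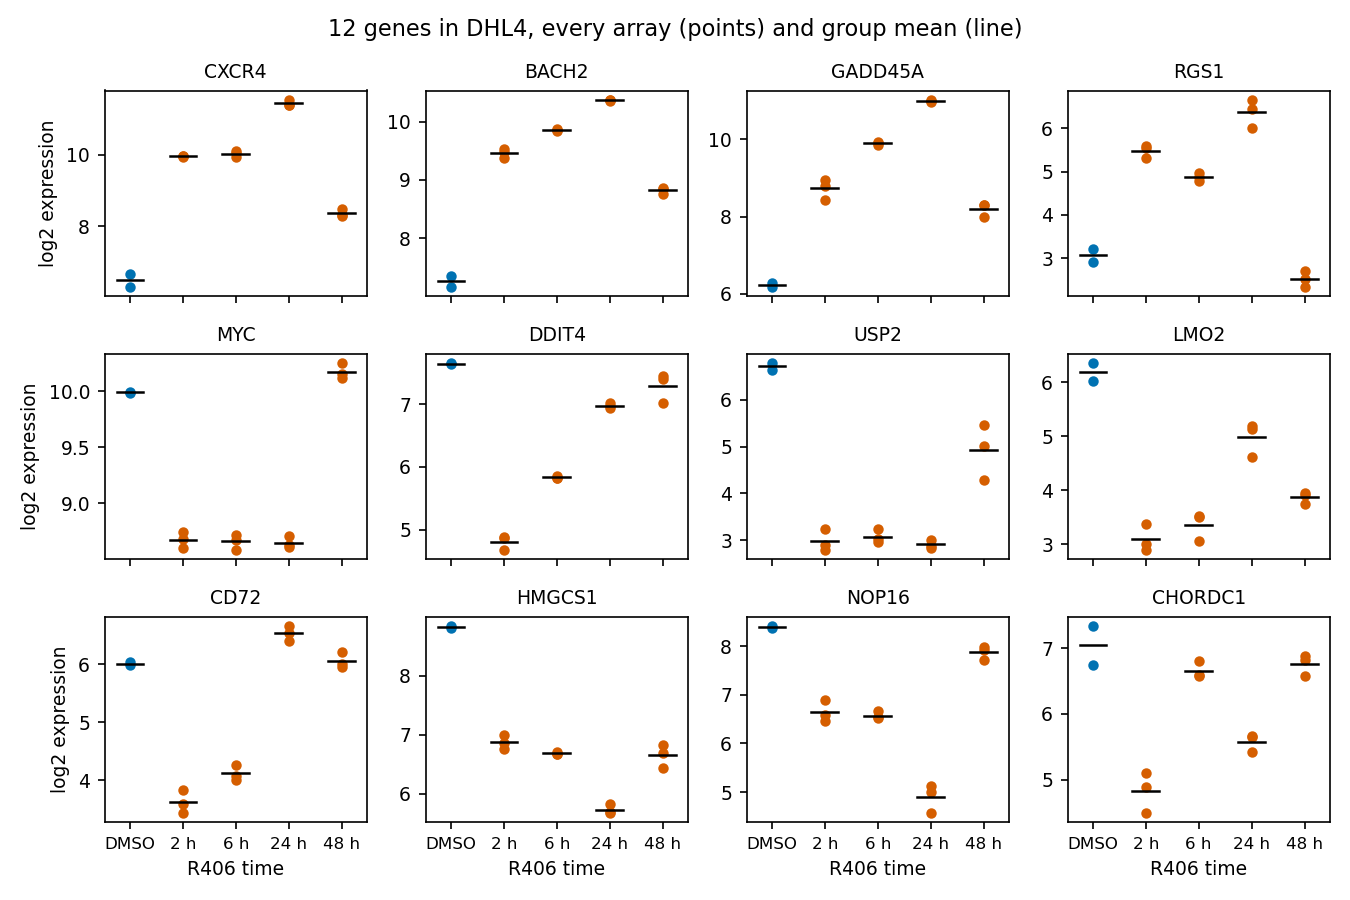
Log2 expression of 12 genes in DHL4 in the DMSO arrays and after 2, 6, 24 and 48 h of R406 (horizontal axis, groups evenly spaced and not to scale), with 1 point per array and a line at the group mean. CXCR4 and BACH2 are high at every R406 time, MYC is low from 2 to 24 h and near DMSO at 48 h, and DDIT4 and CHORDC1 are lowest at 2 h.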

How the data were processed

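The deposited table held log2 values for 22277 probe sets on 29 arrays, which the authors made with RMA, per the submitters' processing notes. Which arrays were normalized together is not given in the sources used here. Probe sets were named through the platform annotation (19724 with a single symbol, 568 with several and 1923 with none, of which single ones were kept), and each of 12165 genes was read by the single-symbol probe set with the highest mean across the 29 arrays. The group means of 10 groups were fitted with limma 3.58.1 in R 4.3.3 on all arrays, which share 1 estimate of spread with 19 residual degrees of freedom, and p-values were Benjamini-Hochberg adjusted. The number of arrays limits the precision.

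Genes named are the 20 largest separated rises and falls, up to 8 called and 3 bright uncalled members of each list, the 10 largest differences between lines each way, and a few fixed pathway genes. Other probe sets are given for some of these genes, and for the rest they may differ. The 45 lists (834 members, 744 measured), like the comparison itself, were chosen with earlier results of these data known. Promoters came from RefSeq (GRCh38.p14), and the sterol motif was added later. Alternatives changed the arrays fitted, scaling, probe sets, filter, variance model, weights, replicate block and single arrays, and those for 6 h against 2 h were chosen after seeing the data. No label says that replicate numbers pair the arrays, and the main fit did not pair them. Of the largest rises 1 is not reported here.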

Additional observations from a re-analysis of the deposited data

Results flagged for a closer look

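The change after 2 h of R406 differed between DHL4 and DHL6, by limma's contrast of the 2 responses with Benjamini-Hochberg adjustment, for 72 of the 342 named genes. Over all 12165 genes it differed for 214 (1.76%). Named genes were chosen partly by this difference and by the size of the DHL4 change, so their larger share follows from the choice. The values are the DHL4 log2 change minus the DHL6 log2 change, 48 of them below 0 and 24 above. Of the 72 genes 13 were dim in DHL6 in both groups and 4 were dim in DHL4 in both groups, and 33 calls were lost without at least 1 of the 11 arrays compared.

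Genes of receptor signalling and its brakes that differed were RASGRP1 by -1.91, FCGR2B by -1.80, CBLB by 1.19 and RASGRP3 by -0.62. In the PI3K-AKT list DDIT4 differed by -1.63 and TRIB3 by -1.37, and in the plasma cell list CD27 by 1.00. Immediate early genes differed as well, IER5 by -2.30, IER2 by -1.36, SRF by -0.97, EGR3 by 0.86 and JUNB by -0.74. So did feedback and NF-kB genes, DUSP2 by -1.53, DUSP7 by -1.39, NFKBIE by -1.36 and NFKBIA by -1.06. CD83 differed by -1.25, BHLHE40 by 2.25 and GADD45B, of the FOXO list, by -1.15. MYC and ribosome synthesis genes with a called difference were MYC by -2.27, PUS7 by -1.71, PPRC1 by -1.27, RRS1 by -1.14 and DDX21 by -0.72. Lipid enzymes and chaperones with a called difference were ELOVL6 by -1.47, SQLE by -0.87, MSMO1 by -0.65 and HSP90B1 by -0.68. In the survival, death and arrest lists the genes were HRK by -1.98, PIM1 by -1.91, PIM2 by -1.06, PMAIP1 by -0.80, GADD45A by 2.03, CCNG2 by 1.71, TSC22D3 by 2.03, E2F3 by -0.80 and CDC25C by 1.36. Germinal centre, homing and G-protein genes were BACH2 by -1.36, BCL6 by -0.92, MME by -0.77, LYL1 by -1.01, RGS16 by -2.94, RGS19 by -1.18, RGS1 by 2.01, RGS2 by 1.56 and CXCR4 by 1.99. Antigen presentation, interferon and RNA turnover genes were HLA-DMB by 0.67, TAP1 by -1.24, OAS1 by 1.95 and ZFP36L2 by -1.17. The others with a negative value were USP2 by -3.84, BCAR3 by -2.64, CKAP4 by -2.55, TRAF4 by -2.51, THY1 by -2.43, PYHIN1 by -2.32, ZMIZ1 by -2.24, PTGS1 by -1.98, ATP10D by -1.91, SLC2A6 by -1.59 and TFEB by -1.28. The others with a positive value were KANK2 by 1.07, APOLD1 by 1.33, SEC14L1 by 1.37, TMPRSS15 by 1.56, RUBCNL by 1.63, EIF2AK3 by 1.74, PCDH9 by 1.83, IL16 by 1.94, EMP3 by 2.03, TMEM156 by 2.12 and LRRN3 by 3.25.

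MYC, IER5, RGS16, CD83 and CCNG2 were called with opposite signs in the lines. No group held 4 or more arrays, so single arrays were not screened by a test for outlying values.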

How the results depend on the processing

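No called value of a named gene changed direction under the alternatives run that tested it. Of the 197 named genes called at 2 h, 102 kept the call under every alternative that tested them and 95 lost it under 1 or more. A fit on the compared groups alone, with fewer degrees of freedom, called 510 genes (126 higher, 384 lower) and left 3 falls for fatty acid synthesis, 15 for ribosome synthesis, 3 for translation factors, 5 for endoplasmic reticulum chaperones, 1 for cytosolic and mitochondrial chaperones and 3 rises for mitosis. Quantile normalization gave 551 higher genes and 12 mitosis rises. Array weights gave 1155 calls in DHL6 and 350 differences between lines. The cause of these shifts was not tested.

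Leaving out 1 array at a time gave 568 to 1232 calls in DHL4, 146 to 332 higher and 403 to 904 lower. The list counts ranged from 4 to 9 for fatty acid synthesis, 17 to 24 for ribosome synthesis, 3 to 6 for translation factors, 6 to 8 for endoplasmic reticulum chaperones, 8 to 12 for cytosolic and mitochondrial chaperones and 1 to 7 for mitosis. Differences between lines ranged from 102 to 252, DHL6 calls from 454 to 579 and calls for 6 h against 2 h from 799 to 1510. When 1 DMSO array is left out, the other is assumed to vary like the remaining groups.

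With the replicate number as a block 1049 genes were called, 309 higher and 740 lower, with 206 differences between lines. Deviations of same-numbered DMSO and R406 arrays correlated at 8e-04 and -0.21. The deviations of 2 DMSO arrays mirror each other, so these values cannot decide whether the numbers pair the arrays. The main limits are the 2 DMSO arrays of unlabelled time, the third R406 array with its lower values at middle levels, and the 6420 genes below 3.5 in DMSO, where falls are compressed.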
